A study of Mus musculus with 8 samples.

Results

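The accessible chromatin of 10 genes of spermatogonial stem cells and of glial cell line-derived neurotrophic factor (GDNF) signalling was described by ATAC-seq. They were the GDNF receptor genes Gfra1 and Ret, the transcription factor genes Etv5, Bcl6b and Lhx1, and the stem cell factor genes Id4, Eomes, Pax7, Shisa6 and Nanos2. A peak belonged to a gene when the deposited table listed that symbol among the genes assigned to it, and overlapping peaks of the 8 libraries were merged into regions. The 10 genes held 288 of 328733 peaks and 75 of 87144 regions. All libraries came from PIWIL2-eGFP mice, in which the Piwil2 promoter drives eGFP from prenatal germ cells to early spermatids, so that sorting on eGFP takes germ cells of several kinds. The labels give the strain as derived from C57BL/6 x 129s4/SvJae, and all mice, the 0 h group included, received WIN 18,446 for 7 days from 2 dpp, a drug that blocks the synthesis of retinoic acid (RA). The 0 h mice were collected without RA, and the other mice at 18, 48 or 120 h after an RA injection at 9 dpp. The study takes these timepoints as undifferentiated A, A1/A2, A3 and B spermatogonia. There were 2 libraries per timepoint, each made from 1 mouse with its testes pooled.

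GDNF is secreted by somatic cells of the testis and binds the co-receptor GFRA1, which brings together the receptor tyrosine kinase RET on spermatogonia. RET then signals through adaptors, SRC family kinases and the AKT and MAPK pathways, and in stem cell cultures GDNF raises transcription of Etv5, Bcl6b and Lhx1. ID4, an inhibitor of basic helix-loop-helix factors, the T-box factor EOMES, the paired box factor PAX7, the membrane protein SHISA6 and the RNA-binding protein NANOS2 mark or maintain subsets of undifferentiated spermatogonia, which leave this state in response to RA.

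Regions are numbered along the chromosome within each gene, so that Ret 2 is the second region of Ret. Distances are those of the deposited table, from the gene start along the gene, with negative values upstream. The sequence of 5 regions that the height results turn on is given first, read from GRCm38, the build of the files, within 100 bases of the highest summit, on the plus strand and without untranslated exons. Ret 2 lies in an intron and Etv5 6 and Id4 2 just upstream of the gene starts. Eomes 7 lies downstream of the gene and Pax7 3 in an intron. Capitals mark short motifs found on either strand. These are the ETS motif CCGGAA, the FOX motif TGTTTAC, the E-box CAGCTG, the GC box GGGCGG (read as CCGCCC on the other strand) and the CCAAT box (read as ATTGG).
Ret 2 (chr6:118190013-118190213): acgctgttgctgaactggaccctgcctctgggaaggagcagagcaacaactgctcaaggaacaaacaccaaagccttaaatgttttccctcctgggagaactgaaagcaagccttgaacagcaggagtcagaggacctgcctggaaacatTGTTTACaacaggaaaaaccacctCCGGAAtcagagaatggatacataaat
Etv5 6 (chr16:22439720-22439845): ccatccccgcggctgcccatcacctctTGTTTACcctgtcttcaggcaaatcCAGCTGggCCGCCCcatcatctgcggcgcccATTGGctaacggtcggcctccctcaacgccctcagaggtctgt
Id4 2 (chr13:48260765-48260965): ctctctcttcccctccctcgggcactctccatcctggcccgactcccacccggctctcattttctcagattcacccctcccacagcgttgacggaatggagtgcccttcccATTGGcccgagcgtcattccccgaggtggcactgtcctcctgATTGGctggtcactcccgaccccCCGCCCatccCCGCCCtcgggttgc
Eomes 7 (chr9:118494525-118494725): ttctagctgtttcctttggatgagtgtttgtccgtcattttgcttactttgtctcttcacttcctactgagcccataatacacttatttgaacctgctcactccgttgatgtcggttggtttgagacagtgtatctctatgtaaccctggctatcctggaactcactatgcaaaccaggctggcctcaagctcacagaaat
Pax7 3 (chr4:139761885-139762085): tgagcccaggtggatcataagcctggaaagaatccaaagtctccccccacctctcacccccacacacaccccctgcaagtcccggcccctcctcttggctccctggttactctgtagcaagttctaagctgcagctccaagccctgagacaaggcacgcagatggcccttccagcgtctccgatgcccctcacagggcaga
Ret 2 held 1 FOX and 1 ETS match, the bases shown of Etv5 6 held a FOX, an E-box, a GC box and a CCAAT match of the 7 matches in its 201 bases, and Id4 2 held 2 CCAAT and 2 GC box matches. No 2 matches overlapped in the bases shown. Eomes 7 and Pax7 3 held none of these motifs, nor the T-box motif GGTGTGA, the octamer ATGCAAAT, the homeodomain motif TAATTA or the DR5 and DR2 repeats of AGGTCA read by RA receptors, with 5 and 2 bases between the copies. Over the 201 bases around the summits of all 87144 regions, the ETS motif was present in 7.96%, the FOX motif in 3.74%, the E-box in 13.9%, the GC box in 19.3% and the CCAAT box in 25.5%. Among the 75 member regions the same motifs were present in 5, 5, 10, 20 and 21 regions. The T-box motif was in 4 member regions and 2.90% of all regions, the homeodomain motif in 1 and 2.23%, and the octamer in 0 and 1.06%. The DR5 and DR2 repeats were in 0 member regions and in 12 and 10 of all regions. The median GC content was 56.2% in the member regions and 52.7% in all regions.

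The authors reduced all libraries to the same number of tags, and peak height here is the coverage at the summit after this step, with a lowest called value of 24 or 25. The number of reads behind a peak was not analysed here, and a region without a peak in a library has no height. As each library was 1 mouse, the replication behind the p-values was 2 mice per timepoint. In the height tests with equal tags, the spread was pooled over all tested regions and timepoints. Those p-values therefore do not measure how far 2 mice differ at a single region. The 2 libraries at 0 h held 72215 and 69089 peaks and the 6 later libraries between 24643 and 39551. Across the 15536 regions that had a peak in every library, the median height was 224 and 270 before RA, 91 and 116 at 18 h, 86 and 102 at 48 h, then 166 and 106 at 120 h. Counts of calls against 0 h are therefore given beside the same share over all regions or genes. The germ cell identity was checked on markers, and all 8 of Ddx4, Dazl, Piwil2, Mael, Tex101, Sall4, Dnd1 and Mov10l1 had a peak within 1000 bp of the start in every library. The same was true of 1 of 9 Sertoli, 0 of 6 Leydig, 1 of 4 peritubular myoid, 0 of 4 macrophage and 1 of 4 endothelial marker genes. The share over all genes was not computed. The peaks assigned to the 9 Sertoli markers summed to between 32 and 34 per library at 0 h and between 8 and 15 later. Gata1, Rhox5 and Fshr had no start peak in any library and no peak at all after 0 h. The sums were 4 to 6 before RA and 0 to 3 later for Leydig, 15 to 17 and 6 to 9 for peritubular, 7 to 8 and 3 to 5 for macrophage, and 14 to 15 and 3 to 10 for endothelial markers, and Hsd3b1 and Adgre1 had no peak. Those of the 8 germ cell markers were 22 to 23 and 16 to 23. The lower somatic sums after 0 h went with lower sums for the 10 genes, and their part in the results was not tested. In bulk samples fewer cells with an open region and less accessible DNA per cell cannot be told apart.

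Together the 10 genes had 60 and 63 peaks before RA, 24 and 32 at 18 h, 22 and 26 at 48 h, then 38 and 23 at 120 h. Both 0 h libraries exceeded every later library for 5 genes, Gfra1, Id4, Etv5, Lhx1 and Pax7. The same was true of 36.9% of all 21490 genes with a peak. For each of these 5 genes the exact permutation test gave p = 0.0714 (two-sided, 2 against 6 libraries), the smallest value this design allows. That value follows from the order of the libraries by which the 5 genes were picked, and adds nothing to it. The median over the 10 genes of the ratio of peaks at 0 h to peaks later was 1.95, and it was 1.64 over all genes with a peak in a later library. When an equal number of the highest peaks was kept in each library, 0 of the 10 genes had more peaks in both 0 h libraries than in every later one, beside 2.21% of all genes, and the 10 genes together had 28 and 23 peaks at 0 h and between 22 and 27 later. All 5 genes thus lost this order with equal peak numbers, a step that dropped the lowest peaks.

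**Figure D1:**
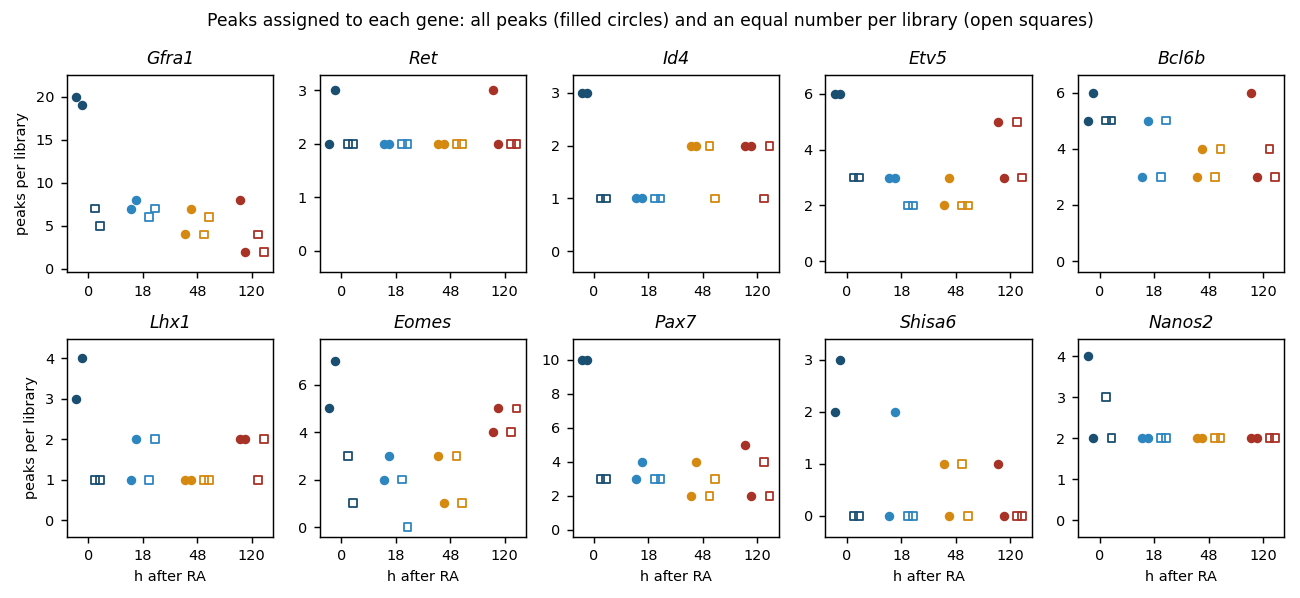
Number of peaks assigned to each of the 10 genes in each library (vertical axes, 2 libraries per timepoint) by hours after RA (horizontal axes). Filled circles count all peaks and open squares an equal number of the highest peaks per library. With all peaks Gfra1 had 20 and 19 at 0 h and 2 to 8 later, and with equal numbers its 0 h values of 7 and 5 lay among the later values of 2 to 7.

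A region was counted at a timepoint when both of its libraries had a peak there, and 54 of the 75 regions were counted at 1 timepoint or more. The other 21 had peaks only in 1 library of any timepoint. By this rule the number present was 52 before RA, 22 after 18 h, 17 after 48 h and 21 after 120 h. At 0 h only, 26 of the 54 (48.1%) were found, beside 49.8% of all such regions. At all 4 timepoints 12 (22.2%) were found, beside 25.3% of all such regions. At 120 h and not at 0 h there were 2 (3.70%), Id4 3 and Lhx1 4, beside 2.98% of all such regions. Among the regions to which the table assigns a gene, as it does to every member region, 43.4% were found at 0 h only, 31.3% at all 4 timepoints and 3.17% at 120 h and not 0 h. At 18, 48 and 120 h, 40.7%, 31.5% and 38.9% of the 54 member regions were present. Beside them stood 39.2%, 36.2% and 36.1% of all such regions, and 44.4%, 42.3% and 43.3% of the regions with a gene. Of the 26 regions counted at 0 h alone, 16 were without a peak in every later library, while 4 kept one in 1 later library, 5 in 2 and 1 in 3. The median heights of the 26 at 0 h were 66.5 and 61.0, beside 320 and 389 for the 12 regions at all 4 timepoints. With an equal number of highest peaks the regions at 0 h only fell to 4. Introns held 15 of the 26 regions at 0 h only and 2 of the 12 at all 4 timepoints, and a CpG island was noted for 7 of the 26 and 8 of the 12. Over all regions of the same classes, with or without an assigned gene, a CpG island was noted for 8.24% and 58.6%. The share in introns over all regions was not computed. The long gene Gfra1 supplied 10 of the 26 regions and 0 of the 12.

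Gfra1 (chr19:58235604-58455909, minus strand), the gene of the GDNF co-receptor, had the most peaks of the 10 genes. It had 20 and 19 peaks before RA, 7 and 8 at 18 h, 4 and 7 at 48 h, then 8 and 2 at 120 h. Only 83 of all genes had as many 0 h peaks or more on average, Gfra1 included, and at 220.3 kb it is the second longest of the 10 genes. Of its 25 regions, 21 lay in introns and 19 over 10 kb from the start, and 10 were found at 0 h only. None had a peak in all 8 libraries. The nearest region to the start in the deposited table, Gfra1 23 at +2 bp, had heights of 62 and 70 at 0 h and no peak in any later library. Its neighbour Gfra1 24 at -606 bp had 110 and 72 before RA, 52 in 1 library at 18 h, 44 in 1 library at 48 h, then 48 and 36 at 120 h. The gene coordinates above reach further upstream, and Gfra1 25 at -1278 bp (chr19:58455637-58456138) spans their upstream end. Gfra1 25 had 80 and 75 before RA, 54 in 1 library at 18 h and 63 in 1 library at 120 h. By these coordinates Gfra1 24 and Gfra1 25 are among the 21 intronic regions.

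The highest region of Gfra1 was the intronic Gfra1 18 at +36066 bp (chr19:58418167-58418648). Its heights were 247 and 198 before RA, 54 and 66 at 18 h, 40 and 69 at 48 h, and 80 in 1 of the 2 libraries at 120 h. The 0 h libraries were above every later library. Of the regions at 0 h only, those with the highest value in the lower library were Gfra1 17, another intronic region, with 178 and 108 at 0 h and no later peak, and Gfra1 5 with 109 and 95 at 0 h and 58 in 1 library at 18 h. At 120 h replicate 2 only Gfra1 13 and Gfra1 24 had a peak, with heights of 34 and 36, whereas replicate 1 had 8 peaks.

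**Figure D2:**
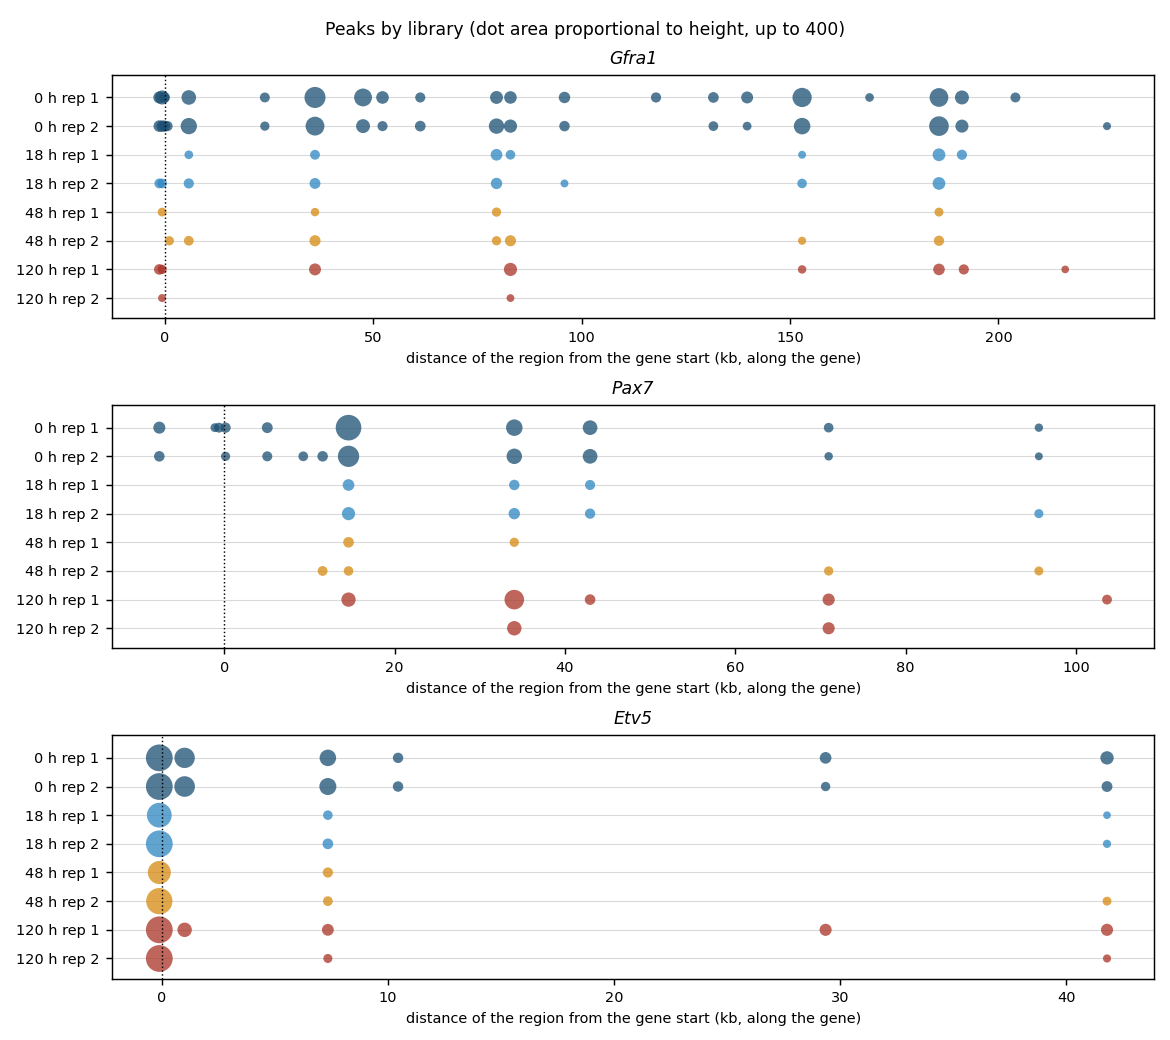
Peaks of Gfra1, Pax7 and Etv5 by distance from the gene start (horizontal axes, kb) in each of the 8 libraries (rows), with dot area proportional to height up to 400. The rows of the 0 h libraries hold 20 and 19 dots for Gfra1, 10 and 10 for Pax7 and 6 and 6 for Etv5, and the row of 120 h replicate 2 holds 2, 2 and 3.

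Ret (chr6:118151745-118197718, minus strand), the gene of the receptor tyrosine kinase, had few peaks and kept them. It had 2 and 3 before RA, 2 and 2 at 18 h and at 48 h, then 3 and 2 at 120 h. The regions Ret 2 and Ret 3 had a peak in all 8 libraries. Ret 3, in an untranslated exon at +368 bp within a CpG island, was 267 and 302 high before RA, 78 and 92 at 18 h, 50 and 87 at 48 h, then 96 and 66 at 120 h. The intronic Ret 2, which held the FOX and ETS matches, was 583 and 315 high before RA, 102 and 116 at 18 h, 121 and 89 at 48 h, then 193 and 55 at 120 h. In both regions the 0 h libraries were above all later libraries. The ratio between the libraries of a timepoint was largest at 120 h in Ret 2.

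Etv5 (chr16:22381309-22439719, minus strand) encodes an ETS family transcription factor required for stem cell self-renewal, and it had the highest region of the 10 genes. It had 6 and 6 peaks before RA, 3 and 3 at 18 h, 2 and 3 at 48 h, then 5 and 3 at 120 h. Etv5 6, at -110 bp, was 1035 and 1119 high before RA, 342 and 516 at 18 h, 295 and 385 at 48 h, then 945 and 598 at 120 h. Among the same 15536 regions it lay between percentiles 97.3 and 99.3 in every library. Etv5 4, an intronic region at +7346 bp, was 152 and 162 high before RA, 51 and 64 at 18 h, 58 and 53 at 48 h, then 78 and 46 at 120 h. Of the 3 regions at 0 h only, Etv5 5 at +1010 bp stood out, with 231 and 237 at 0 h and a later peak of 116 only in 120 h replicate 1. Etv5 3 had 60 and 61 at 0 h and no later peak.

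Bcl6b (chr11:70224128-70229798, minus strand) encodes a transcriptional repressor. It had 5 and 6 peaks before RA, 3 and 5 at 18 h, 3 and 4 at 48 h, then 6 and 3 at 120 h, so that the groups overlapped. Of the regions within 1000 bp of its start, Bcl6b 4 at +710 bp, the nearest, was found at 0 h only, with 150 and 192 before RA, 81 in 1 library at 18 h and 94 in 1 library at 120 h. Bcl6b 5 at -762 bp was 259 and 298 high before RA, 75 and 110 at 18 h, 92 and 110 at 48 h, then 181 and 103 at 120 h. The 2 other Bcl6b regions that had a peak in every library lay at the starts of neighbouring genes. Bcl6b 2, 62 bp upstream of the start of Slc16a13, was 287 and 463 high before RA, 102 and 124 at 18 h, 115 and 129 at 48 h, then 160 and 100 at 120 h. Bcl6b 6, at the start of 0610010K14Rik, was 446 and 533 high before RA, 191 and 247 at 18 h, 211 and 200 at 48 h, then 471 and 404 at 120 h. At 120 h Bcl6b 6 thus lay near its 0 h values, and both 120 h values of Bcl6b 2 lay below its 0 h values. The other region at 0 h only, Bcl6b 1, had 115 and 141 at 0 h and a peak in 1 library of each later timepoint, of 54, 54 and 48.

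Lhx1 (chr11:84518284-84525535, minus strand) encodes a LIM homeobox factor. It had 3 and 4 peaks before RA, 1 and 2 at 18 h, 1 and 1 at 48 h, then 2 and 2 at 120 h. Its start region, Lhx1 4 at -2 bp, was counted at 120 h and not at 0 h, with 60 and 68 at 120 h, 93 in 1 of the 2 libraries at 0 h and 60 in 1 library at 18 h. This class rested on 0 h replicate 1, in which no peak was called. The regions in coding exons, Lhx1 2 with 56 and 77 and Lhx1 3 with 67 and 98, had peaks at 0 h alone. The highest region, Lhx1 1, lay 67 bp upstream of the start of Aatf and had 398 and 470 before RA, 149 and 236 at 18 h, 165 and 182 at 48 h, then 390 and 265 at 120 h.

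Id4 (chr13:48261228-48266026, plus strand) had 3 and 3 peaks before RA, 1 and 1 at 18 h, and 2 and 2 at 48 h and at 120 h. Id4 2, in a CpG island at -547 bp and with the CCAAT and GC box matches shown above, was 353 and 523 high before RA, 142 and 183 at 18 h, 90 and 147 at 48 h, then 252 and 235 at 120 h. Id4 3 at +301 bp in the coding exon had 80 in 1 library at 0 h, none at 18 h, 52 and 46 at 48 h, then 56 and 53 at 120 h. Of the 75 regions it alone was counted at 48 h and 120 h but not at 0 h. Id4 1 upstream had 32 and 53 at 0 h and no later peak.

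Eomes (chr9:118478212-118486132, plus strand), which encodes the T-box factor of a GFRA1-positive subset, had 5 and 7 peaks before RA, 2 and 3 at 18 h, 3 and 1 at 48 h, then 4 and 5 at 120 h. With an equal number of highest peaks it had 3 and 1 before RA and 4 and 5 at 120 h. Its nearest region to the start, Eomes 3 at +467 bp, had 108 and 102 before RA, 47 in 1 library at 18 h and at 48 h, then 73 and 54 at 120 h. Eomes 7, at +16131 bp and downstream of the gene, was 171 and 147 high before RA, 47 and 48 at 18 h, 45 and 48 at 48 h, then 259 and 98 at 120 h. Both 120 h libraries were above all 18 h and 48 h libraries and on both sides of the 0 h libraries. The regions at 0 h only were the low upstream peaks Eomes 1, with 47 and 29, and Eomes 2, with 36 and 33.

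Pax7 (chr4:139737062-139833528, minus strand) had 10 and 10 peaks before RA, 3 and 4 at 18 h, 2 and 4 at 48 h, then 5 and 2 at 120 h. Its start region, Pax7 10 at +168 bp, had 59 and 47 at 0 h and no later peak. The highest region, the intronic Pax7 6 at +14600 bp, had 366 and 253 before RA, 76 and 97 at 18 h, 63 and 51 at 48 h, and 114 in 1 of the 2 libraries at 120 h. Of its 4 regions at 0 h only, the highest were Pax7 13 with 81 and 62 and Pax7 9 with 66 and 56. The intronic Pax7 4 had 120 and 121 before RA, 57 and 59 at 18 h and 63 in 1 library at 120 h. In the intronic Pax7 3 and Pax7 5 the highest value was that of 120 h replicate 1. Pax7 3 had 52 and 40 before RA, 48 in 1 library at 48 h, none at 18 h, then 83 and 82 at 120 h. Pax7 5 had 152 and 133 before RA, 61 and 72 at 18 h, 48 in 1 library at 48 h, then 214 and 116 at 120 h. The value of 116 lay below both 0 h values.

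Shisa6 (chr11:66211725-66525964, minus strand) is the longest of the 10 genes, at 314.2 kb, but had only 2 and 3 peaks before RA, 0 and 2 at 18 h, 1 and 0 at 48 h, then 1 and 0 at 120 h. Its start region, Shisa6 3 at -370 bp, had 82 and 64 before RA, 35 in 1 library at 18 h and 36 in 1 library at 120 h. Shisa6 1, the other region at 0 h only, had 60 and 41 at 0 h, 38 in 1 library at 18 h and 35 in 1 library at 48 h. The highest value of the gene was 82.

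Nanos2 (chr7:18987400-18988962, plus strand) had 4 and 2 peaks before RA and 2 in every one of the 6 later libraries. No peak lay within 1000 bp of its start in any library. Nanos2 1, at -8516 bp, was 269 and 310 high before RA, 146 and 147 at 18 h, 111 and 181 at 48 h, then 295 and 110 at 120 h, so that the 120 h libraries lay on both sides of the 18 h and 48 h values. Nanos2 3, the highest region, lay 141 bp upstream of the start of Mypop and had 400 and 641 before RA, 240 and 309 at 18 h, 175 and 228 at 48 h, then 324 and 191 at 120 h.

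**Figure D3:**
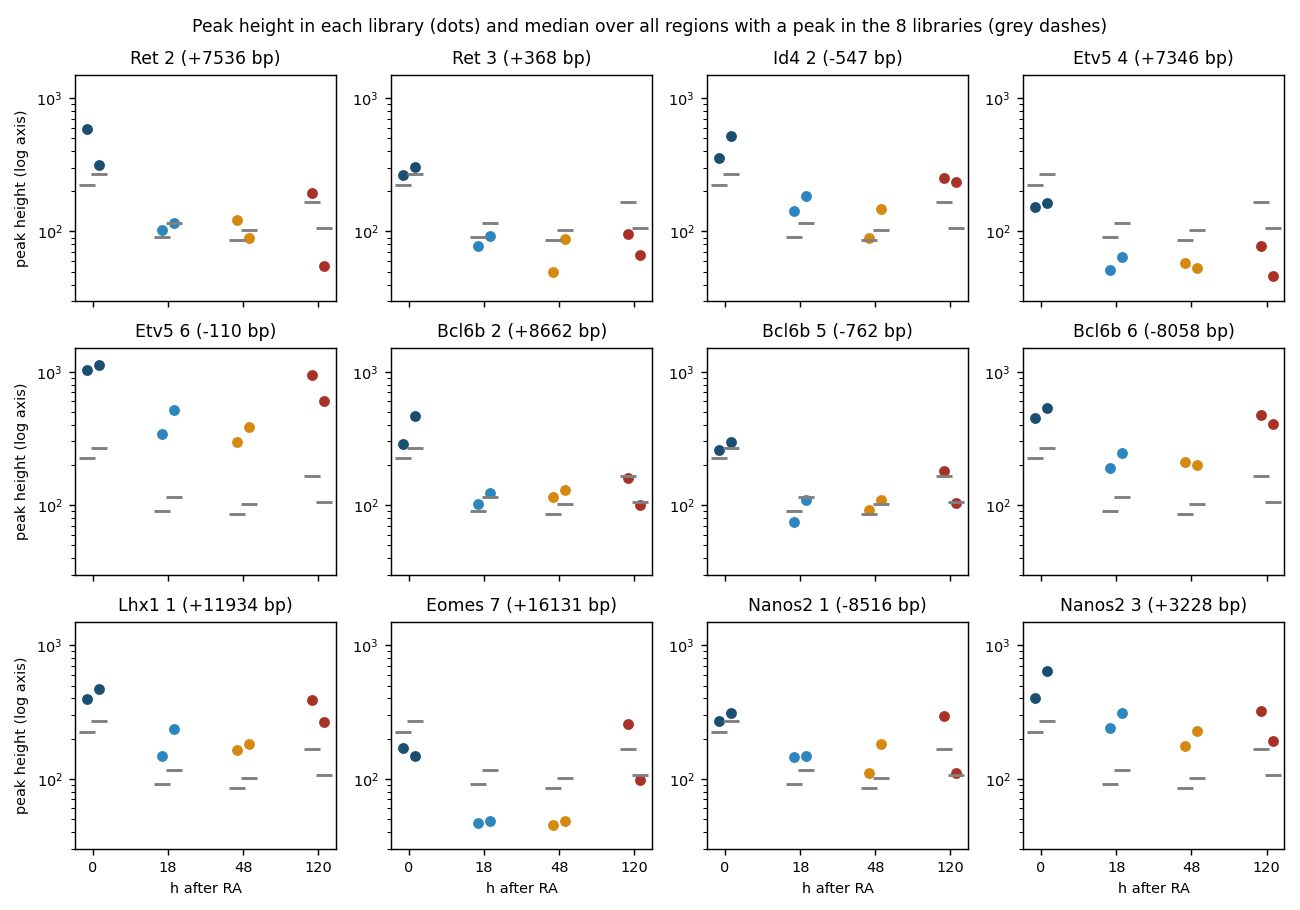
Peak height on a log axis in each library (dots, 2 per timepoint) by hours after RA, for the 12 regions of the 10 genes with a peak in all 8 libraries. Grey dashes give the median of all 15536 such regions in the same library. Etv5 6 lies above the dashes in every library, Ret 3 lies above them at 0 h and below them later, and Eomes 7 lies below them at 0, 18 and 48 h.

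Heights were compared between timepoints with limma across these 15536 regions, with Benjamini-Hochberg adjustment. The 12 member regions in this set passed a filter that removes every region without a peak in any 1 library, and Gfra1, Pax7 and Shisa6 had none in it. All 12 were lower than before RA at both 18 h and 48 h, beside 92.3% and 93.3% of all regions. Their log2 changes ranged from -1.98 to -0.89 at 18 h and from -2.11 to -1.03 at 48 h, with a standard error of 0.37. The median over all regions was -1.23 and -1.36. By 120 h the lower regions numbered 6, namely Ret 2, Ret 3, Etv5 4, Bcl6b 2, Bcl6b 5 and Nanos2 3, beside 44.8% of all regions, and the median over all regions was -0.75. Without 0 h replicate 2, fewer of the 12 and fewer of all regions were lower, and the median over all regions was -0.63.

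When each library was centred on its median, 0 of the 12 regions passed the limma test in either direction at 18 h or at 48 h, where 1.47% and 4.77% of all regions did, and 1 region had an unadjusted p under 0.05 at each timepoint. By quantile normalization the number lower was also 0 at both timepoints. The centred changes at 18 h ranged from -0.72 ± 0.39 (SE) for Ret 2 to 0.36 ± 0.21 for Nanos2 3. At 48 h the lowest was -0.71 ± 0.22 for Ret 3, with an adjusted p of 0.0839.

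By 120 h, 3 of the 12 regions were lower than before RA after centring, beside 15.8% of all regions, and 2 were higher, beside 23.0% of all regions. Both regions of Ret were lower. Ret 3 was lower by a log2 change of -0.94 ± 0.22 (SE), a 1.92-fold difference, with an adjusted p of 0.00602 in limma, and its call was kept in each of the 8 fits that left out 1 library. Ret 2 was lower by -1.17 ± 0.39, with an adjusted p of 0.0313, but the call was lost without 0 h replicate 1 (-0.59) and without 120 h replicate 2 (-0.58). Bcl6b 2, the Slc16a13 start region, was lower by -0.64 ± 0.21, with an adjusted p of 0.0274. It was lost without 0 h replicate 2 and without either 120 h library.

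The regions that were higher at 120 h after centring were Eomes 7, by 0.90 ± 0.26, and Bcl6b 6, by 0.73 ± 0.22, each with an adjusted p of 0.0179 in limma. On the scale of equal tags the same changes were 0.01 ± 0.37 and -0.16 ± 0.37, with adjusted p of 0.989 and 0.744, while the median region fell by 0.75 on the log2 scale. Eomes 7 was lost without 0 h replicate 2 (0.65) and without 120 h replicate 1 (0.52). Bcl6b 6 was lost without either 0 h library and without 120 h replicate 2 (0.52). Etv5 6 at the start of Etv5 changed by 0.37 ± 0.20 after centring, with an adjusted p of 0.149, and Id4 2 by 0.07 ± 0.24, with an adjusted p of 0.834. With equal tags both had the opposite sign, -0.52 ± 0.37 for Etv5 6 and -0.82 ± 0.37 for Id4 2, with adjusted p of 0.248 and 0.0579. The signs of Lhx1 1 (-0.43 and 0.46 after centring) and Nanos2 1 (-0.68 and 0.21) also turned, and neither passed the test on either scale.

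**Figure D4:**
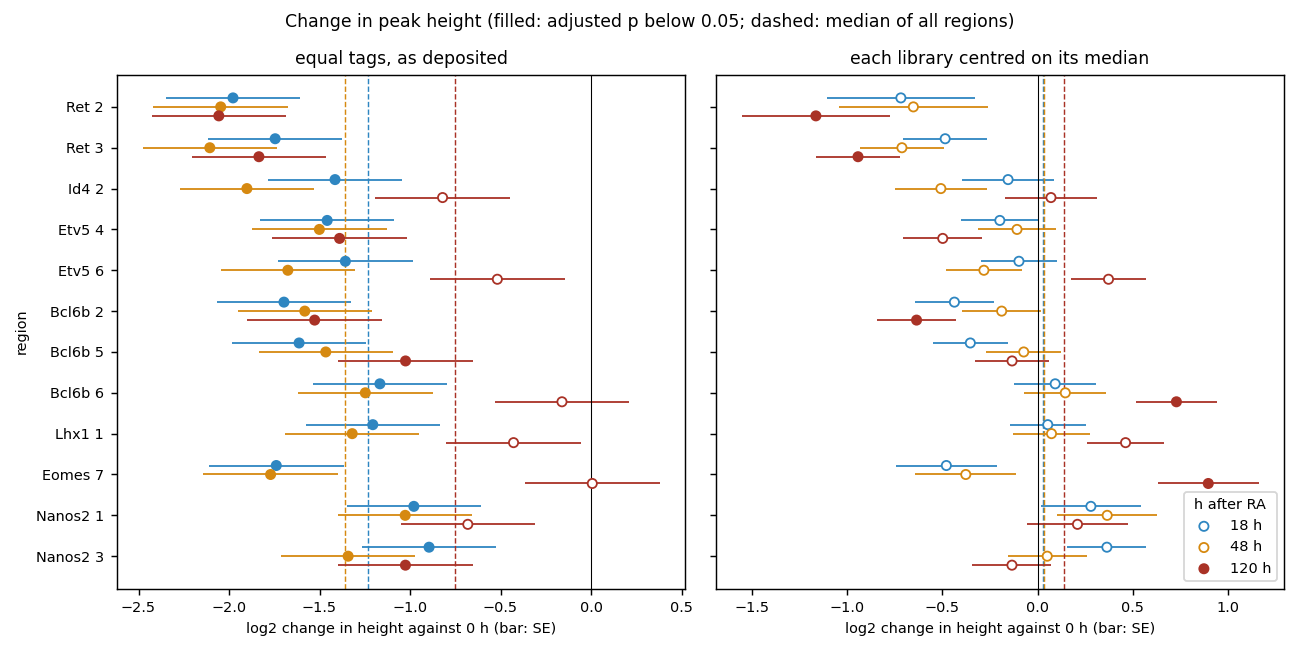
Log2 change in peak height at 18, 48 and 120 h against 0 h (horizontal axes, bars are standard errors) for the 12 regions (rows), with equal tags on the left and each library centred on its median on the right. Filled dots passed an adjusted p of 0.05 in limma, and dashed lines give the median of all regions. On the left all dots at 18 and 48 h lie below 0, and on the right the filled dots are Ret 2, Ret 3, Bcl6b 2, Bcl6b 6 and Eomes 7 at 120 h.

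Between 48 h and 120 h the heights of Id4 2, Etv5 6, Bcl6b 6 and Eomes 7 rose, 4 of the 12 regions, beside 23.7% of all regions. The rise was 3.43-fold for Eomes 7, 2.23-fold for Etv5 6, and 2.12-fold for both Bcl6b 6 and Id4 2. This number fell without either 48 h library or 120 h replicate 1, and rose without 120 h replicate 2. The calls over all regions fell and rose in the same fits, so this is not read as a trait of the members. The median log2 change over all regions was 0.56 with every library. It was 0.44 and 0.68 without 48 h replicates 1 and 2, and 0.27 and 0.87 without 120 h replicates 1 and 2. After centring 2 regions remained, beside 9.47% of all regions. They were Eomes 7, higher by 1.28 ± 0.26 with an adjusted p of 0.0168 in limma, and Etv5 6, higher by 0.66 ± 0.20 with an adjusted p of 0.0414. Eomes 7 was lost without 120 h replicate 1 (0.90) and without either 48 h library (1.35 and 1.20). Etv5 6 was lost without any 1 of the 18, 48 or 120 h libraries, with changes from 0.59 to 0.72. Each of these fits left 1 library at a timepoint, and in each of them fewer of all regions were called higher. The lost calls are therefore not read as a trait of these regions.

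Regions of genes with no peak in some timepoint were reached by a comparison added after the data were seen, in which a region needed a peak only in the 4 libraries of the 2 timepoints compared. At 18 h it held 22 member regions, of which 21 were lower than at 0 h, beside 92.6% of all regions so tested. At 48 h it held 16, all lower, beside 93.5% of all. Gfra1 18 changed by -1.89 ± 0.32 (SE) at 18 h and by -2.07 ± 0.30 at 48 h. After centring these were -0.60 and -0.65, with adjusted p of 0.215 and 0.142 in limma. The region not lower at 18 h was also of Gfra1, Gfra1 14, at -0.58 ± 0.32 with an adjusted p of 0.071. After centring it changed by 0.70 ± 0.25 at 18 h, with an adjusted p of 0.131. Gfra1 6, Gfra1 8 and Gfra1 20 then changed by 0.10, -0.79 and -0.15, and none passed the threshold. After centring 1 of the 16 was lower at 48 h, Pax7 6, by -1.01 ± 0.29 with an adjusted p of 0.0450, beside 2.10% of all regions lower. At 120 h after centring, 4 of 19 member regions were higher than at 0 h, beside 20.0% of all. They were Pax7 3, by 1.80 ± 0.29 with an adjusted p of 0.00031, Pax7 5, by 1.09 ± 0.27 with an adjusted p of 0.00617, Eomes 7 and Bcl6b 6. Pax7 6 could not be tested at 120 h, as 120 h replicate 2 had no peak there. With equal tags the changes of Pax7 3 and Pax7 5 at 120 h were 0.86 ± 0.42 and 0.15 ± 0.42, with adjusted p of 0.0903 and 0.797. Leaving out single libraries was not run for this comparison.

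The other genes of the pathway were read in 3 lists. The first held GDNF and its relatives with their receptors, 9 genes with 36 regions. Peaks exceeded every later library in both 0 h libraries for 6 of the 9 genes, where 36.9% of all genes did so. Gdnf, the ligand itself, had 5 and 3 peaks at 0 h and 0 or 1 later, and Ncam1, an alternative GDNF receptor, had 7 and 8 at 0 h and 2 to 4 later. Of 8 tested regions, 3 were lower at 120 h with equal tags, beside 44.8% of all regions. After centring 1 was lower, in Ncam1 (-0.59), beside 15.8% of all regions, and 2 were higher, beside 23.0%, the regions assigned to the ligand genes Nrtn (0.85) and Pspn (0.92). Pspn had no peak within 1000 bp of its start in any library. The Nrtn region was 178 and 248 high at 0 h, where the highest Nrtn peak within 1000 bp of the start was 325. Whether these 2 regions act on the named genes was not tested.

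The second list held adaptors and kinases that act after RET, 18 genes with 97 regions. Peaks exceeded every later library in both 0 h libraries for 8 of the 18, beside 36.9% of all genes, with the largest fall for Pik3r1, a regulatory subunit of the PI3 kinase, with 8 and 6 at 0 h and 2 to 4 later. A start peak in all 8 libraries was found for 13 of the 18. The same share over all genes was not computed, so this count is not read as a trait of the list. Of 32 tested regions, 11 were lower and 0 higher at 120 h with equal tags, beside 44.8% of all regions lower. After centring 3 were lower and 10 higher, beside 15.8% and 23.0% of all regions, with a median of 0.21 beside 0.14 over all regions. The higher ones included regions assigned to Grb2 (1.28), Gab1 (1.20), Map2k1 (0.95), Mapk3 (0.94), Src (0.91) and Akt1 (0.90). The lower ones included regions assigned to Sos1 (-0.90), Shc1 (-0.73) and Gab1 (-0.66). Genes were assigned within 10 kb, and some of these regions lay away from the gene's start. The Akt1 region was 896 and 1070 high at 0 h, but no Akt1 peak within 1000 bp of the start exceeded 128 there. For Src the values were 186 and 183 against 116, and for Sos1 287 and 522 against 204. Whether such regions act on the named gene was not tested.

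The third list held other GDNF-responsive genes and stem cell factors, 18 genes with 82 regions. Peaks exceeded every later library in both 0 h libraries for 10 of the 18, beside 36.9% of all genes. They included Utf1 with 5 and 5 at 0 h and 1 to 3 later, Itga6 with 7 and 5 at 0 h and 2 to 4 later, and Cxcr4, the receptor of CXCL12, with 3 and 3 at 0 h and 0 to 2 later. Of 19 tested regions, 13 were lower at 120 h with equal tags, beside 44.8% of all regions. After centring 3 were lower and 1 was higher, beside 15.8% and 23.0% of all regions. The largest centred fall in this list was in a region assigned to Itga6, an integrin used to enrich stem cells. At 0 h no Itga6 peak within 1000 bp of the start exceeded 147, while this region was 658 and 597 high. It was 162 and 200 high at 18 h, 151 and 176 at 48 h, then 156 and 40 at 120 h. Its centred change at 120 h was -2.10 ± 0.32 (SE), with an adjusted p of 0.00069 in limma. The other lower regions were assigned to Foxc2 (-0.95) and Plvap (-0.73). The higher one was assigned to the cyclin gene Ccnd2 (1.15), and the same region was also higher at 48 h (1.00). The Foxc2 region was 215 and 254 high at 0 h, where no Foxc2 peak within 1000 bp of the start exceeded 115. Plvap had no such start peak in any library, and Ccnd2 had one in only 1 library. Whether these regions act on the named genes was not tested.

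With an equal number of the highest peaks per library, the mean number of peaks at 0 h minus the mean later lay between -0.33 and 0.50 for Gdnf, Ncam1, Pik3r1, Utf1, Itga6 and Cxcr4, against 2.0 to 4.5 with all peaks.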

How the data were processed

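ATAC-seq was performed on sorted PIWIL2-eGFP germ cells, 2 libraries at each of 4 timepoints. The authors aligned reads with BWA mem (0.7.12 in the submitters' processing notes) to mm10 (GRCm38). They discarded duplicate and mitochondrial tags, made tag numbers equal, extended tags to 200 bp and called peaks per library with MACS 2.1.0 (p cutoff 1e-07, no control). The deposited signal is tag coverage at the summit and its mean over the peak, in 32-nt bins, with genes assigned within 10 kb. The labels give 100,000 cells per replicate, and the methods another number and a C57BL/6 x SJL background.

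Peaks sharing at least 1 bp were merged in Python 3.11.15 (pandas 2.3.3), and a region's height in a library was its highest summit value. Log2 heights were tested in limma (version 3.58.1, run under R 4.3.3, 4 groups, no block, Benjamini-Hochberg, threshold 0.05) in regions with a peak in all 8 libraries, as deposited and after median centring. Without centring the fit gave every region the same standard error. The fit was run on simulated data in which few regions changed, unlike the uncentred data here, where most did. The merging was run on a short made-up example. Neither run tests the fit under the conditions of these data. Peaks per gene were compared with exact permutation tests (28 splits). The study's DESeq2 test on reads was not repeated.

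The members and lists were chosen with earlier results of these data known. Named were every member's nearest start region (within 1000 bp), its highest region, those with a peak in every library, regions at 120 h and not 0 h, the 2 highest at 0 h only, and list genes past the threshold after centring or with the largest falls in peaks. Features are from GENCODE vM21, CpG islands from the deposited table. Other settings were quantile normalization, the mean signal, a replicate block, fewer libraries, an intensity trend, a value of at least 50, windows of 100 bp around summits, equal peak numbers, either replicate, and each library left out. Signal tracks were not used.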

Additional observations from a re-analysis of the deposited data

How the results depend on the processing

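Regions at 0 h only numbered 26, between 19 and 35 with single libraries left out and 4 with an equal number of highest peaks per library. Regions at all 4 timepoints numbered 12, between 12 and 15 with single libraries left out, 22 with a peak in either replicate and 6 for peaks inside the gene or within 1000 bp of its start. Genes with more peaks in both 0 h libraries than in any later one numbered 5, between 5 and 7 with single libraries left out and 0 with equal numbers. Regions lower at 18 h numbered 12 (8 to 12 with single libraries left out), as did those lower at 48 h (10 to 12), and both numbers were 0 under median centring, quantile normalization and centring with a replicate block. With a peak needed only in the libraries compared, a setting chosen after seeing the data, they were 21 and 16, and 0 and 1 after centring. Regions lower at 120 h numbered 6 (3 to 9 with single libraries left out), 3 under centring with or without the block, 2 under quantile normalization and 2 under the added setting with centring. Regions higher at 120 h than at 0 h numbered 0, and 2, 2, 1 and 4 under centring, centring with the block, quantile normalization and the added setting with centring. Of all 15536 regions, 6955 were lower and 137 higher at 120 h with equal tags. Under centring 2449 and 3568 were, and under quantile normalization 1586 and 1358. Leaving out single libraries also moved the calls over all regions. Shares over all regions were not computed for the timepoint classes under other settings. No count of member regions given here is read as a trait of the members. Regions higher at 120 h than at 48 h numbered 4 (0 to 7 with single libraries left out), 2 under centring with or without the block, 1 under quantile normalization, 1 in a fit of only the libraries compared, and 2 and 1 under the added setting without and with centring. After centring, leaving out single libraries, also added after seeing the data, gave 1 to 3 lower and 0 to 2 higher regions at 120 h against 0 h, and 0 to 2 higher against 48 h.

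The sign of some named changes turned under scaling, beside the uncalled changes at 120 h of Etv5 6, Id4 2, Lhx1 1 and Nanos2 1 given above. In the order centring (the same with the block), quantile normalization and the added setting with centring, Bcl6b 6 changed by 0.0926, 0.0656 and 0.118 after 18 h, by 0.146, 0.163 and 0.172 after 48 h, and by 0.730, 0.287 and 0.781 after 120 h. Lhx1 1 changed by 0.0535, 0.0345 and 0.0791 after 18 h, and by 0.0732, 0.0952 and 0.0996 after 48 h. Nanos2 1 changed by 0.280, 0.312 and 0.306 after 18 h, and by 0.366, 0.424 and 0.392 after 48 h. Nanos2 3 changed by 0.364, 0.354 and 0.390 after 18 h, and by 0.0508, 0.0762 and 0.0771 after 48 h. Without centring Eomes 7 at 120 h against 0 h was -0.0725 by the mean signal and from -0.694 to 0.708 with single libraries left out, below 0 without 0 h replicate 2 (-0.102) or 120 h replicate 1. The cause was not tested. The replicate block without centring left the 12, 12, 6, 0 and 4 calls as they were. Same-numbered libraries correlated between -0.22 and 0.25 in their deviations, and not every pair was over 0.1, so the numbers were not taken to pair the libraries. Of 726 other values of the 43 named changes, 545 kept direction and side of the threshold, 138 lost the call, 4 gained one and 39 turned. The replicate block, the intensity trend and leaving out a library outside the contrast cannot change the estimate, only its test. The 545 is therefore not a measure of robustness. Depth per peak is not known, and a region without a peak has no value below the calling limit.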
